A study of Homo sapiens with 6 samples.

Results

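The set described here is the machinery that makes ribosomes: 51 genes for RNA polymerase I (Pol I), its initiation factors, the small nucleolar ribonucleoproteins (snoRNPs), the assembly factors of both ribosomal subunits, and MYC. Genes were chosen by name, and a probe was kept where the platform annotation gave it one of these symbols and its detection p was under 0.05 on at least 3 of the 6 arrays. This left 62 probes of 45 genes, out of 13762 probes of 10779 genes kept in all. Of the 51 genes, no probe was named for EBNA1BP2, GNL3 and WDR43. POLR1A, RRP1 and RRP9 had a probe that was not kept. RRP9 lay just outside the rule, with detection on 2 arrays. POLR1B lay just inside it, with detection on the 3 control arrays and on no DAMTC array, so it passed only through the group where it was brighter.

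RNA came from A549 cells, an established line from a human lung adenocarcinoma, and was read on Illumina Human-6 bead arrays. The 3 DAMTC arrays hold RNA of A549 cells given 160 µg/ml of DAMTC, a code name used as the labels give it, for 24 h. The 3 control arrays hold RNA of A549 control cells, for which the sources name no vehicle. The replicates are called biological without separate cultures being named, and the p-values reflect only how far these arrays spread, which may be technical.

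Pol I transcribes the ribosomal RNA genes in the nucleolus into one long precursor. UBTF binds those genes, the SL1 complex (TBP with TAF1A to TAF1D) marks their promoter, and RRN3 joins the polymerase to it. The precursor is modified under the guidance of snoRNPs, folded and cut in the small subunit (SSU) processome and in large subunit precursors, and exported. MYC is known to raise transcription of many genes of this pathway. The arrays measured messenger RNA of these genes and not the ribosomal RNA itself. In bulk RNA a smaller number of cells and less RNA per cell cannot be told apart.

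The number of probes detected at p under 0.05 lay between 16329 and 17058 on the DAMTC arrays and between 17357 and 17835 on the control arrays. The exact two-sided permutation test of that difference gave p = 0.1, the smallest value that 3 against 3 arrays allow. Of the kept members, 44 were detected on each DAMTC array and 45 on each control array. The control arrays took the first positions of 1 BeadChip and the DAMTC arrays the last, so position and treatment cannot be told apart. Of 9 markers fixed for A549 and lung epithelium, 8 were detected on all 6 arrays and AKR1C1 on none. CDH1, the epithelial cadherin, was lower with DAMTC (log2 difference -1.64, limma adjusted p = 0.0238). The other 7 were not past a limma adjusted p of 0.05. Of the 8 differences, 4 were below 0 and 4 above 0, with a median of -0.003. The blood markers PTPRC and CD3E, the endothelial markers VWF and CDH5 and the fibroblast markers COL1A2, COL3A1 and PDGFRB were not detected on any array, whereas CD14, CD68 and PECAM1 were detected on all 6, and KDR, COL1A1 and DCN on 1 or 2. With DAMTC, CD68 differed by 1.10, CD14 by -0.80 and PECAM1 by 0.63 on the log2 scale (limma adjusted p = 0.0626, 0.103 and 0.127); their part in the results was not tested.

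With DAMTC the ribosome-making genes moved in both directions, in shares near those of all genes. By limma's moderated test, Benjamini-Hochberg adjusted over all 10779 genes with a threshold of 0.05, POLR1C, TAF1D, RRP8 and UTP14A were higher and POLR1B, TAF1B, GAR1, RRS1 and UTP15 were lower. POLR1B was kept only through the control arrays, where it was brighter, so its place among the lower genes is no support. The 4 higher genes are 8.89% of the 45, against 12.2% of all genes tested, and the 5 lower genes are 11.1%, against 12.8%. In either direction the share was 20% of the members and 24.9% of all genes, so the count is near the background and is not a result about the set. Detection required on all 6 arrays left POLR1B out, and GAR1 did not pass. Then 4 of 44 members were higher and 3 lower, against 1062 and 1052 of 8873 genes. The 45 log2 differences (DAMTC minus control) ran from -1.99 to 1.33, 23 below 0 and 22 above 0, with a median of -0.0035, against -0.04 over all genes. The 3 DAMTC arrays lay wholly below the control arrays for 10 members and wholly above them for 9, against 21.7% and 20.2% of all genes. In the remaining 26 members (57.8%) the groups overlapped, as they did in 58.1% of all genes. For 16 of the 45 members (35.6%) the 95% confidence interval of the difference lay within a 2-fold change either way, against 30.6% of all genes. The balance of directions depended on the scaling, in the members and over all genes. With each array scaled to its median in place of quantile normalization, 1 member was higher and 9 were lower. Over all 10779 genes the counts were then 898 and 2144, against 1311 and 1378 in the main fit. The median moved to -0.18 for the members and to -0.26 for all genes. Control replicate 1 also weighed on the counts. Without it 9 members were higher and 7 lower, against 1722 and 1999 of all genes.

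**Figure D1:**
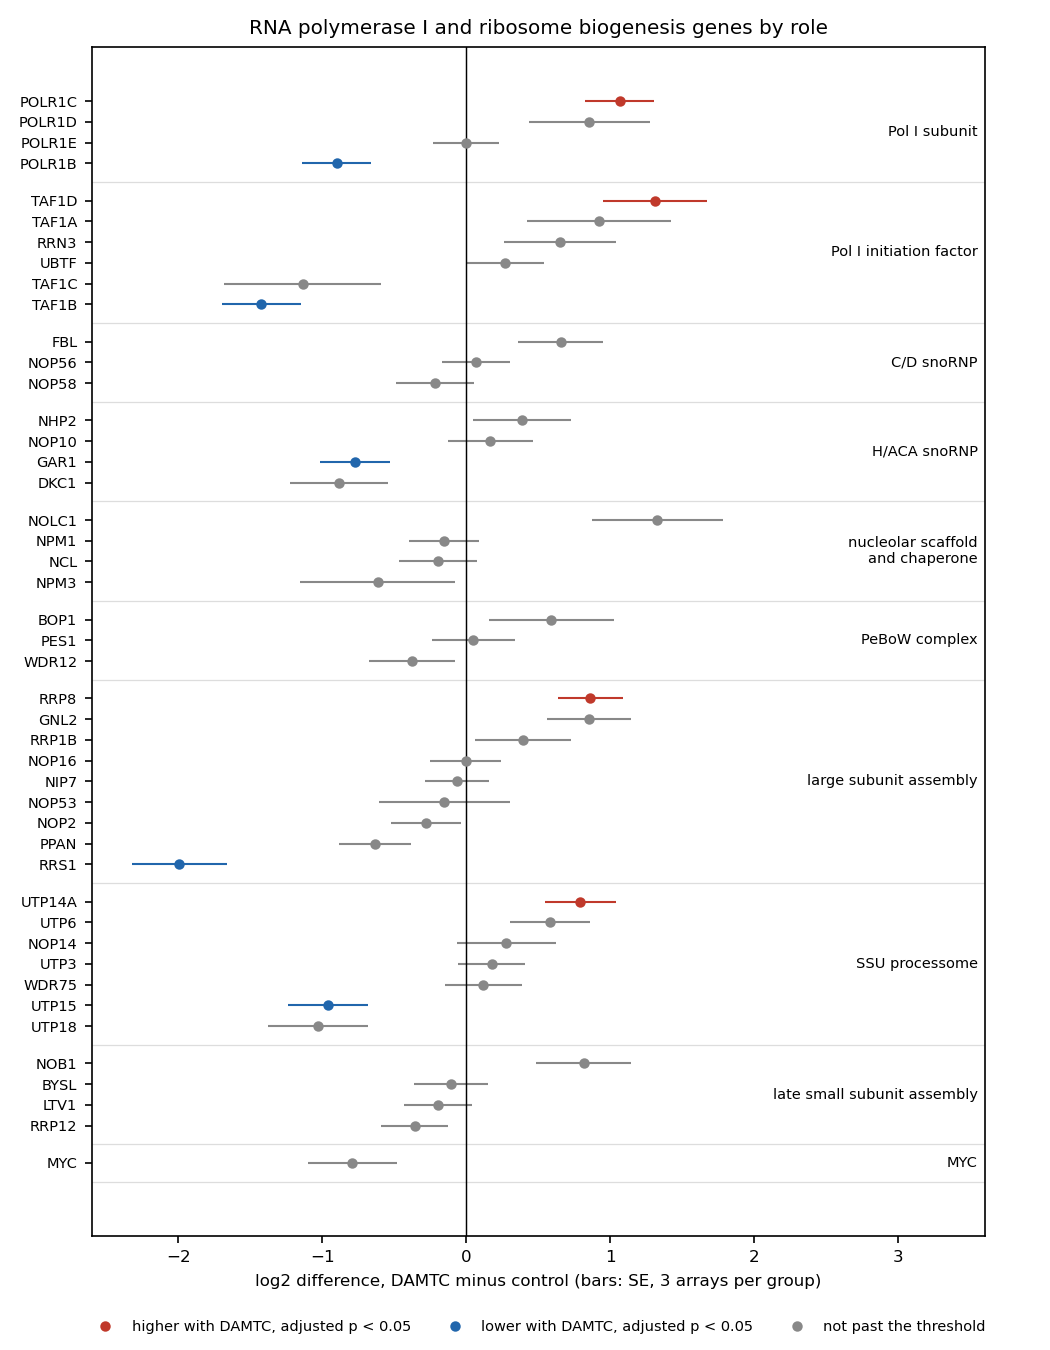
Difference between DAMTC and control in log2 units (x axis) for each of the 45 members with a kept probe, grouped by role; points are the fitted differences and bars their standard errors, with 3 arrays per group. The 4 red genes and 5 blue genes that passed the threshold stand on either side of 0, and most role groups span it.

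**Figure D2:**
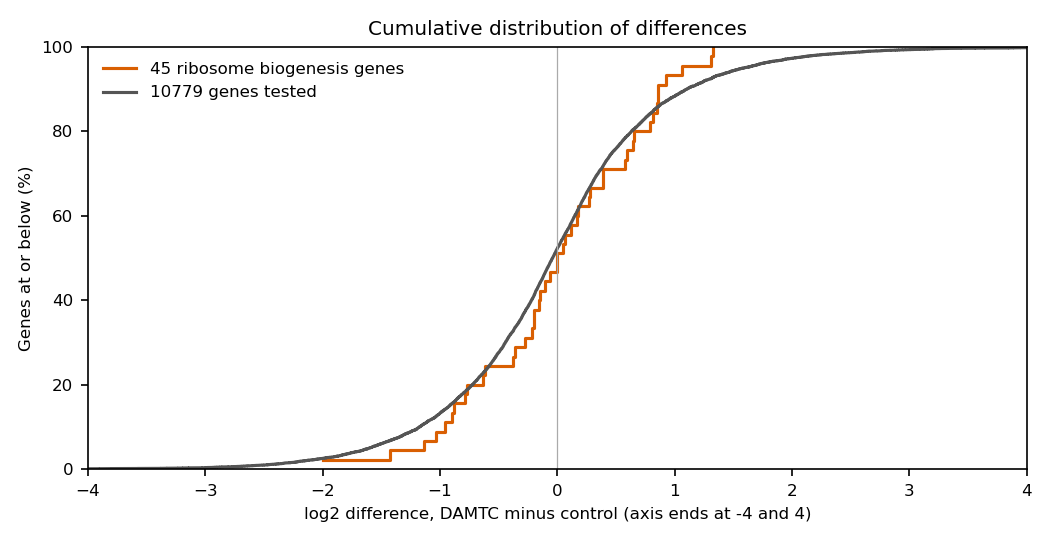
Cumulative share of genes (y axis, %) at or below each log2 difference between DAMTC and control (x axis) for the 45 members and for all 10779 genes tested. The members' curve runs close to that of all genes through the middle, with a median of -0.0035 against -0.04, and ends at -1.99 and 1.33.

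Stretches of promoter are shown for genes past the threshold because both directions occur within 1 complex and because several of these promoters share a short motif. The sequences come from RefSeq promoter windows of GRCh38.p14, from 250 bases before to 50 bases after a gene's start, in which 43 of the 51 members were found. RRS1 and MYC were among the members without a window. Each stretch lies before a start of its gene and reads 5′ to 3′ on the gene's strand. It carries in capitals the letters CCGGAAG, a core recognised by ETS factors, or their reverse complement CTTCCGG. Some genes have several starts: the TAF1B match begins at base 16 after another start of that gene. The POLR1B stretch also lies after another start of its gene. POLR1B was kept only through the control arrays, where it was brighter, so its label below as lower is no support.

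TAF1B, lower with DAMTC, chr2:9843437-9843473, plus strand: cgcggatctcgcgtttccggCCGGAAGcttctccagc
POLR1B, lower with DAMTC, chr2:112542403-112542449, plus strand: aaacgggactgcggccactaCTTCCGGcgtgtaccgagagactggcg
GAR1, lower with DAMTC, chr4:109815462-109815508, plus strand: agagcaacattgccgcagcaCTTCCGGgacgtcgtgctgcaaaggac
POLR1C, higher with DAMTC, chr6:43516945-43516991, plus strand: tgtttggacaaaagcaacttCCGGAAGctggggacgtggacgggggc
TAF1D, higher with DAMTC, chr11:93741534-93741580, minus strand: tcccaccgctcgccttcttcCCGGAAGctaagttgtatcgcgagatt

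Both motifs below were chosen after the data were seen, and a longer ETS motif and 1 other motif were counted first. Their shares are therefore a description and no test. Searched on both strands, CCGGAAG was in 18 of the 43 members (41.9%), against 12.2% of the 27305 genes with a window, any window of a gene counting. Among tested genes it was in 16 of 37 members (43.2%), against 22% of 8863 genes, and it was in 10.3% of all 35116 windows. It stood in genes of both directions: 2 of the 4 higher members (POLR1C and TAF1D), 3 of the 4 lower members with a window (GAR1, POLR1B and TAF1B) and 11 of the 29 members that did not pass. POLR1B is counted there although it was kept only through the control arrays. In POLR1C the printed match overlaps a match on the opposite strand. The E-box CACGTG, the letters bound by MYC with its partner MAX, was in 15 of the 43 members (34.9%), against 8.78% of genes with a window. Among tested genes it was in 11 of 37 members (29.7%), against 12.9% of all, and it was in 7.26% of all windows. Only EBNA1BP2, NOP10, UTP18 and UTP14A carried it wholly before a start, and in the other 11 it lay only across or after one. It was in 1 of the 4 higher members, UTP14A, in 1 of the 4 lower members with a window, GAR1, and in 9 of the 29 that did not pass. E-boxes of 3 tested members are printed in capitals on the gene's strand, 1 of a higher gene and 2 of genes that did not pass.

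UTP14A, higher with DAMTC, chrX:129905914-129905948, plus strand: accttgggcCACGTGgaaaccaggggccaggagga
UTP18, not past the threshold, chr17:51260437-51260482, plus strand: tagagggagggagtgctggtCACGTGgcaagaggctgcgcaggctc
NOP10, not past the threshold, chr15:34343281-34343326, minus strand: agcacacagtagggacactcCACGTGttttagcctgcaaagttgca

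These matches are letters in a window and not measured binding. Genes such as TAF1B and GAR1 share the ETS motif with genes that moved the other way.

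Among the Pol I subunits 1 was higher, 1 was lower and the other 2 tested did not pass. POLR1C, a subunit that Pol I shares with RNA polymerase III, had log2 intensities of 11.19, 11.14 and 11.07 on the DAMTC arrays, against 9.78, 10.26 and 10.16 on the control arrays. Every DAMTC array was above every control array, and the difference was 1.07 ± 0.24 (SE, n = 3 per group), a 2.09-fold rise with a limma adjusted p of 0.0132. POLR1B, the second-largest subunit and part of the catalytic centre, read 4.95, 5.20 and 4.99 with DAMTC, against 6.16, 5.97 and 5.73 in control. Because it was not detected on any DAMTC array, its fold is a bound, at least 1.53-fold lower with DAMTC, beside a fitted difference of -0.90 ± 0.24 and a limma adjusted p of 0.0256. Its other probe was likewise detected on the 3 control arrays only, with 4.75, 4.89 and 5.11 on the DAMTC arrays and 5.86, 5.91 and 6.01 on the control arrays, so it too was kept only through the brighter group and is no separate support. Both calls are fragile: that of POLR1B was lost without any 1 of the DAMTC arrays or control replicate 2, with no background correction and with a larger offset, and that of POLR1C without any 1 of the DAMTC arrays and with no normalization.

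POLR1D, the partner of POLR1C in the enzyme's assembly platform, had 14.01, 13.90 and 13.88 with DAMTC and 12.06, 13.83 and 13.33 in control. The DAMTC arrays were all higher, but control replicate 1 stood far below the other two, and the difference of 0.86 ± 0.42 did not pass (limma adjusted p = 0.174). Its other probe leaned the opposite way, by -0.43 (limma adjusted p = 0.335 over all 13762 probes). POLR1E, a Pol I specific subunit, differed by -0.004, with a 95% confidence interval of -0.52 to 0.52. POLR1A, the largest subunit, had no kept probe and has no value here.

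Within the initiation machinery TAF1B fell and TAF1D rose, although both are parts of SL1. TAF1B, the SL1 subunit that resembles the general factor TFIIB, had 9.13, 9.17 and 9.12 with DAMTC, against 11.02, 10.49 and 10.18 in control. The DAMTC arrays lay close together more than 1 log2 unit below the lowest control array. The difference was -1.42 ± 0.27, 2.68-fold lower with a limma adjusted p of 0.00667, and a second probe was lower by -1.17 (limma adjusted p = 0.0456 over all probes). On the raw scale the first probe's mean bead intensity was 568.6 ± 27.3, 684.7 ± 36.6 and 618.7 ± 17.8 on the DAMTC arrays and 2220 ± 71.7, 1656 ± 87.8 and 1528 ± 45.9 on the control arrays (± bead standard error). TAF1D had 10.62, 11.24 and 11.23 with DAMTC and 9.69, 10.38 and 9.09 in control. Every DAMTC array was above every control array, and the difference was 1.31 ± 0.36, 2.48-fold, with a limma adjusted p of 0.0294. A second TAF1D probe did not share it, with a difference of -0.31 (limma adjusted p = 0.638 over all probes). The TAF1D call was lost with median scaling, with no normalization, with the deposited series matrix values, with the mean of both probes, and without DAMTC replicate 2, DAMTC replicate 3 or control replicate 3.

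The other 4 initiation factors did not pass. UBTF, the architectural factor of ribosomal RNA genes, read 6.74, 6.53 and 6.36 with DAMTC and 5.88, 6.50 and 6.44 in control, groups that overlapped. Its difference was 0.27 ± 0.27, with a 95% confidence interval of -0.34 to 0.88 (limma adjusted p = 0.509). A second UBTF probe, detected on 5 arrays, leaned the opposite way, by -0.44 (limma adjusted p = 0.437 over all probes). RRN3, the factor that makes Pol I competent to initiate, had 9.35, 9.65 and 9.41 with DAMTC, against 9.75, 8.28 and 8.44 in control. Control replicate 1 was the highest of the 6 arrays, and the call turned on it: the difference was 0.65 ± 0.39 (limma adjusted p = 0.264) with it and 1.11 (limma adjusted p = 0.00697) without it. Without control replicate 2 it was 0.38. TAF1A and TAF1C, further SL1 subunits, showed the same dependence in opposite directions. TAF1A had 8.89, 9.63 and 9.29 with DAMTC and 9.60, 7.66 and 7.78 in control, a difference of 0.92 ± 0.50 (limma adjusted p = 0.215). TAF1C had 10.75, 9.85 and 9.69 with DAMTC and 9.93, 11.98 and 11.79 in control, a difference of -1.14 ± 0.54 (limma adjusted p = 0.164). In both genes control replicate 1 sat inside the DAMTC range, and without it the differences were 1.55 for TAF1A and -1.81 for TAF1C (limma adjusted p = 0.0037 and 0.00484). Without control replicate 2 they were 0.59 and -0.77. Their other probes gave smaller differences, 0.34 for TAF1A and -0.08 for TAF1C, that did not pass.

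**Figure D3:**
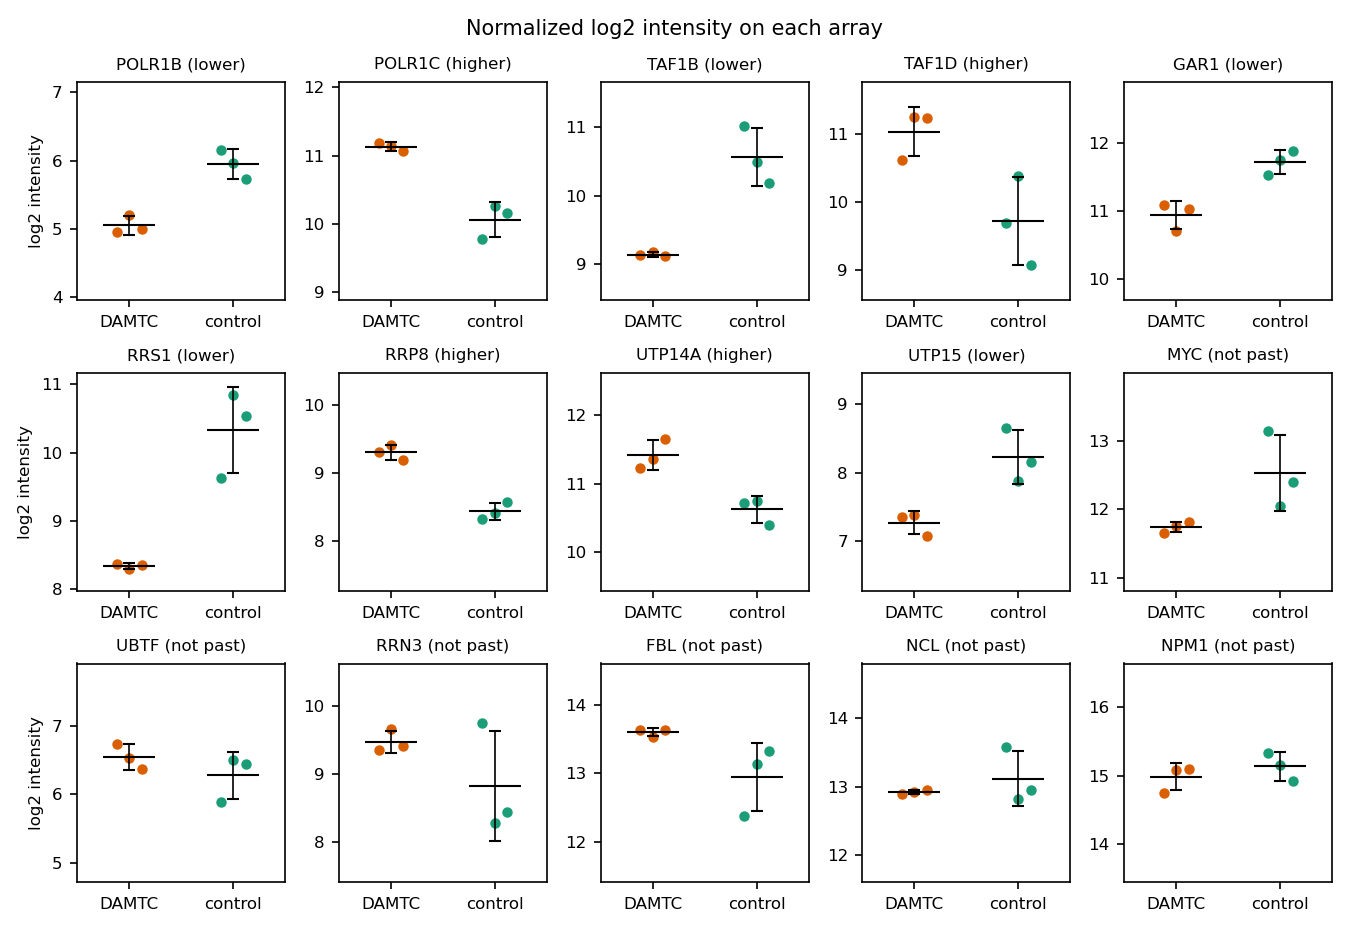
Log2 intensity (y axis, with the same span in each panel) on the 3 DAMTC arrays (left) and the 3 control arrays (right) for the 9 members past the threshold and for MYC, UBTF, RRN3, FBL, NCL and NPM1; points are arrays and bars are means ± SD. RRS1 and TAF1B show tight DAMTC values far below control, while in RRN3 1 control array stands above all DAMTC arrays.

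The C/D snoRNP proteins carry 2′-O-methylation of ribosomal RNA, and none of the 3 passed. FBL, the methyltransferase fibrillarin, had 13.63, 13.54 and 13.64 with DAMTC, against 12.38, 13.13 and 13.32 in control. All DAMTC arrays were above all control arrays, and the difference was 0.66 ± 0.29, with a 95% confidence interval of -0.01 to 1.33 (limma adjusted p = 0.139). NOP56 and NOP58, the core proteins that hold the particle together, differed by 0.06 (-0.47 to 0.60) and -0.22 (-0.84 to 0.40).

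The H/ACA snoRNPs convert uridine to pseudouridine, and GAR1, 1 of their 4 core proteins, was lower. GAR1 had 11.08, 10.71 and 11.03 with DAMTC, against 11.53, 11.74 and 11.88 in control, a difference of -0.77 ± 0.24, 1.71-fold lower with a limma adjusted p of 0.0471. Its groups did not overlap, but a second probe differed by -0.64 and did not pass (limma adjusted p = 0.123 over all probes). The GAR1 call was lost with the mean of its probes, with detection required on all 6 arrays, and without any 1 of the DAMTC arrays, control replicate 2 or control replicate 3. DKC1, the pseudouridine synthase dyskerin, had 11.88, 12.07 and 11.82 with DAMTC and 13.55, 12.29 and 12.58 in control. Again the DAMTC arrays were all lower, and the difference of -0.88 ± 0.34 did not pass (limma adjusted p = 0.0938), while it was -0.52 without control replicate 1, the outlying array, and -1.14 without control replicate 2 (limma adjusted p = 0.0478 for the second of these). NOP10 and NHP2 differed by 0.17 and 0.39, and neither passed.

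None of the 4 nucleolar scaffold and chaperone genes passed. NCL, nucleolin, had 12.89, 12.92 and 12.95 with DAMTC and 13.58, 12.82 and 12.95 in control, a difference of -0.20 with a 95% confidence interval of -0.81 to 0.42 (limma adjusted p = 0.645). NPM1, nucleophosmin, had 14.76, 15.09 and 15.10 with DAMTC and 15.33, 15.16 and 14.92 in control, a difference of -0.15 with an interval of -0.71 to 0.40 (limma adjusted p = 0.69). For both proteins, the abundant scaffolds of the nucleolus, the groups overlapped on the brightest probe. A dimmer NCL probe had the opposite sign, with a difference of 0.79 that did not pass (limma adjusted p = 0.205 over all probes). A dimmer NPM1 probe did differ, with 6.19, 6.48 and 6.73 with DAMTC, against 5.77, 5.39 and 5.43 in control, and was higher by 0.94 (limma adjusted p = 0.0284 over all probes). Which transcript each NPM1 probe reads was not tested. NOLC1, a chaperone of snoRNPs, had the highest difference of the set: 10.32, 10.52 and 10.22 with DAMTC, against 9.95, 7.95 and 9.18 in control. The control arrays spread over about 2 log2 units, and the difference of 1.33 ± 0.45 did not pass (limma adjusted p = 0.0643), while it was 1.79 without control replicate 1 (limma adjusted p = 0.00635) and 0.79 without control replicate 2. NPM3, a relative of NPM1, differed by -0.62 ± 0.54 (limma adjusted p = 0.45).

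Of the 9 tested large subunit assembly factors, RRS1 was lower, RRP8 was higher and 7 did not pass. RRS1, which helps to bring the 5S ribonucleoprotein into the large subunit precursor, gave the largest difference of any member. It had 8.38, 8.30 and 8.35 with DAMTC, against 9.63, 10.84 and 10.54 in control, a difference of -1.99 ± 0.33, 3.98-fold lower with a limma adjusted p of 0.00333. The DAMTC arrays agreed within 0.1 log2 unit, and the lowest control array was still more than 1 unit above them. In mean bead intensity RRS1 read 379.1 ± 23.8, 420.5 ± 14.4 and 414 ± 17.2 with DAMTC and 951.4 ± 36.8, 2059 ± 106 and 1906 ± 69.7 in control (± bead standard error), over 26 to 48 beads per array. RRP8, a nucleolar methyltransferase of the large subunit RNA, had 9.31, 9.41 and 9.19 with DAMTC and 8.33, 8.42 and 8.58 in control. Both groups were tight and apart, and RRP8 was higher by 0.86 ± 0.23, 1.82-fold, with a limma adjusted p of 0.025. The RRP8 call was lost with median scaling, with no normalization, with the deposited series matrix values, and without any 1 of the DAMTC arrays or control replicate 2.

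GNL2, a nucleolar GTPase, had 11.62, 11.91 and 11.89 with DAMTC, against 11.50, 10.67 and 10.68 in control, all DAMTC arrays higher. Its difference of 0.85 ± 0.29 did not pass (limma adjusted p = 0.0653). PPAN, a factor of the early large subunit precursor, lay between 5.99 and 6.08 with DAMTC and read 6.31, 6.85 and 6.81 in control. All DAMTC values were lower, and the difference of -0.63 ± 0.25 did not pass (limma adjusted p = 0.0969). Without control replicate 1 both passed, GNL2 at 1.14 and PPAN at -0.80 (limma adjusted p = 0.00591 and 0.0201), and without control replicate 2 they were 0.72 and -0.53. NOP2, NOP16, NOP53, RRP1B and NIP7 had overlapping groups and differences between -0.28 and 0.39. Of the PeBoW complex, which matures the large subunit, PES1, BOP1 and WDR12 differed by 0.05, 0.59 and -0.38, none past the threshold.

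In the SSU processome, which cuts and folds the small subunit RNA, UTP14A was higher and UTP15 was lower among 7 tested. UTP14A, an activator of the processome's helicase in yeast, had 11.22, 11.36 and 11.65 with DAMTC and 10.72, 10.75 and 10.39 in control. Every DAMTC array was higher, the difference was 0.79 ± 0.25, 1.73-fold, with a limma adjusted p of 0.0462, and a second probe was higher by 1.02 (limma adjusted p = 0.0146 over all probes). UTP14A has a close processed copy, UTP14C, and whether its probes also read it was not tested. UTP15, a subunit of the complex that binds the precursor's leader, had 7.35, 7.39 and 7.07 with DAMTC, against 8.66, 7.87 and 8.16 in control. Its DAMTC arrays were all lower, with a difference of -0.96 ± 0.28, 1.95-fold, and a limma adjusted p of 0.0344. Both calls were lost without any 1 of the DAMTC arrays or control replicate 3, and that of UTP14A also without control replicate 2, with median scaling, with no normalization and with the deposited series matrix values.

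UTP18, another processome protein, had 8.25, 8.75 and 9.03 with DAMTC, against 10.36, 9.27 and 9.48 in control. All DAMTC arrays were lower, and the difference of -1.03 ± 0.35 did not pass (limma adjusted p = 0.0619), while it was -0.71 without control replicate 1 and -1.26 without control replicate 2 (limma adjusted p = 0.0453 for the second of these). UTP3, UTP6, NOP14 and WDR75 differed by 0.18, 0.58, 0.28 and 0.12, with overlapping groups. Of these, UTP6 passed without control replicate 1, at 0.83 (limma adjusted p = 0.0202), and was 0.42 without control replicate 2. None of the 4 late small subunit factors passed. NOB1, the nuclease that makes the final cut of the small subunit RNA, had 8.38, 8.27 and 8.83 with DAMTC and 7.11, 8.22 and 7.71 in control, all DAMTC arrays higher, with a difference of 0.81 ± 0.33 (limma adjusted p = 0.106), which was 0.53 without control replicate 1 and 1.09 without control replicate 2 (limma adjusted p = 0.0449 for the second of these). RRP12, an export factor, had all DAMTC arrays lower and a difference of -0.36 (limma adjusted p = 0.304). BYSL and LTV1 differed by -0.11 and -0.20, with overlapping groups.

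MYC, the transcription factor that drives much of this pathway, had 11.66, 11.75 and 11.81 with DAMTC, against 13.14, 12.06 and 12.40 in control. All DAMTC arrays were below all control arrays, but control replicate 1 was far above the other control arrays, and the difference of -0.79 ± 0.31 did not pass (95% confidence interval -1.49 to -0.09, limma adjusted p = 0.0965). A second MYC probe gave -0.84 (limma adjusted p = 0.0862 over all probes). In mean bead intensity the first probe read 2907 ± 284, 3581 ± 222 and 3557 ± 152 with DAMTC and 7897 ± 316, 4459 ± 227 and 6506 ± 261 in control (± bead standard error). The MYC difference passed with median scaling, at -0.89, and without control replicate 2, at -1.03 (limma adjusted p = 0.0446 and 0.0476). Without control replicate 1 it was -0.49 and did not pass.

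**Figure D4:**
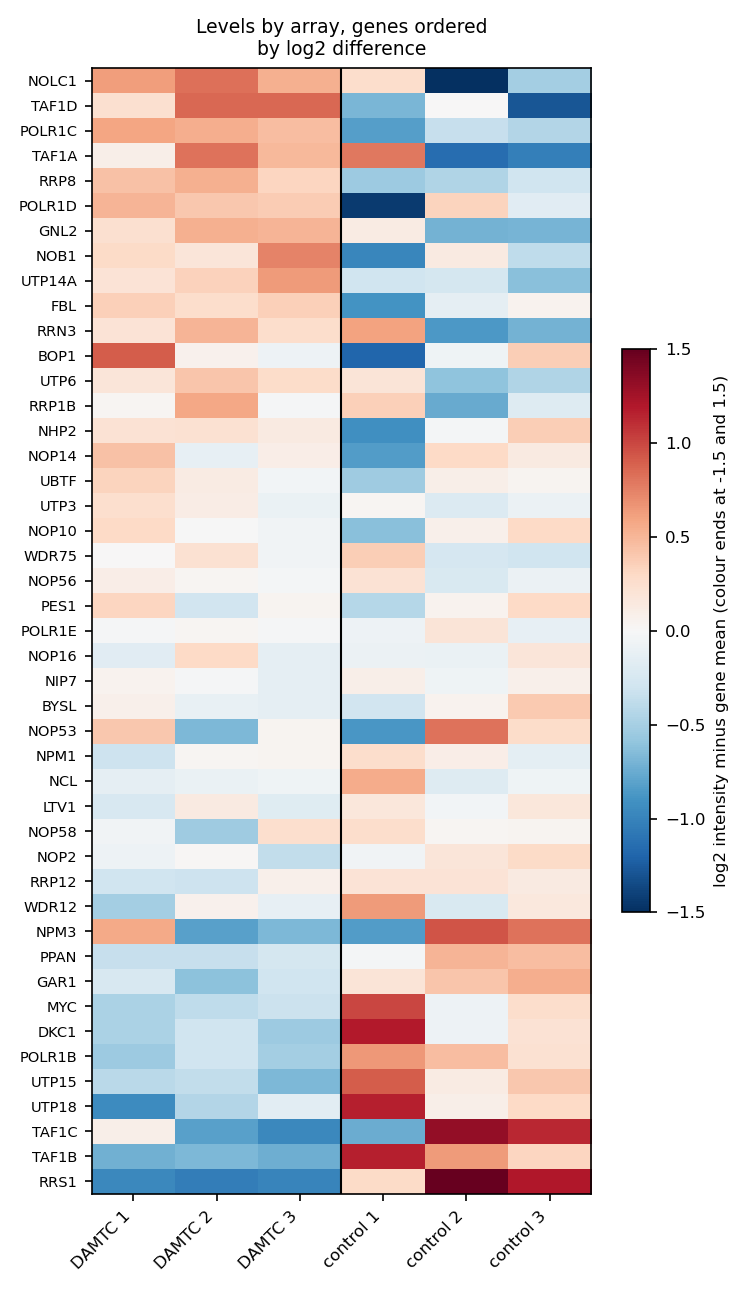
Log2 intensity of each of the 45 members on each array as the deviation from that gene's mean over the 6 arrays (colour, in log2 units), genes ordered by their difference between DAMTC and control. Control replicate 1 often differs from the other control arrays, as in TAF1A, RRN3, POLR1D and TAF1C.

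Across the set the DAMTC arrays were the more alike. The median standard deviation within a group was 0.177 log2 units for DAMTC and 0.421 for control, and control was the wider group in 36 of 45 members (80%), against 71.4% of all genes. Control replicate 1 was the control array farthest from the control median in 33 of 45 members (73.3%), against 57.3% of all genes. Of 17 members with a second kept probe, 10 of the second probes had the same sign of difference as the brightest probe and 7 the opposite sign. At the probe level, with 12.3% of all 13762 probes higher and 12.2% lower, the 62 member probes held 6 higher and 7 lower. The lower ones included both probes of POLR1B, which were kept only through the control arrays.

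Further genes of the pathway, in 7 lists of 190 genes of which 166 were tested, passed in both directions. Of these 166, 16 were higher and 9 lower, together 15.1% against 24.9% of all genes. Among 12 other Pol I and ribosomal DNA chromatin genes only POLR2H was higher (8.33%, against 12.2% of all genes) and none was lower. By limma 1 was higher and 0 lower at an unadjusted p under 0.05. POLR2H, a subunit shared by all 3 nuclear RNA polymerases, had 12.47, 12.40 and 12.33 with DAMTC, against 9.82, 10.77 and 10.94 in control, 3.7-fold higher with a limma adjusted p of 0.0039. The Pol I subunits POLR1F, POLR1G and POLR1H differed by 0.59, 0.02 and 0.40 and did not pass. Of 19 RNA polymerase III subunits and factors 4 were higher (21.1%, against 12.2% of all genes) and 0 lower by limma. By limma 6 were higher and 3 lower at an unadjusted p under 0.05, and the median difference was -0.11. BRF2, a subunit of the Pol III factor TFIIIB at promoters such as that of U6, had 10.39, 10.44 and 9.95 with DAMTC and 8.24, 8.39 and 8.06 in control, a difference of 2.03 ± 0.25 (limma adjusted p = 9.85e-04). GTF3C5 of TFIIIC, the subunit POLR3G and the subunit POLR3K were higher by 1.53, 1.14 and 1.04 (limma adjusted p = 0.00556, 0.0151 and 0.033). POLR3G was detected on the 3 DAMTC arrays but on only 1 of the 3 control arrays. It was kept only through the group where it was brighter, so its place among the higher genes is no support.

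Of 42 other SSU processome genes 4 were higher and 3 lower, 9.52% and 7.14% against 12.2% and 12.8% of all genes. The kinases of late small subunit assembly did not move together. RIOK2 had 11.67, 11.98 and 11.74 with DAMTC, against 10.25, 9.22 and 9.80 in control, 4.11-fold higher (limma adjusted p = 0.00216). RIOK3 had 12.30, 12.32 and 12.73 with DAMTC, against 10.82, 10.63 and 10.62 in control, 3.39-fold higher (limma adjusted p = 0.0015). RIOK1, chosen after its values were seen, was lower by -0.81 (limma adjusted p = 0.0326), and TSR2 and PNO1, chosen likewise, were higher by 1.25 and 0.78 (limma adjusted p = 0.0206 and 0.0477). UTP25 and NOL6, processome proteins, were lower by -1.60 and -1.41 (limma adjusted p = 0.0132 and 0.017).

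Of 47 other large subunit assembly genes 2 were higher and 2 lower, 8.51% in all, against 24.9% of all genes. ZNF622, a late cytoplasmic factor, had 12.41, 12.39 and 12.49 with DAMTC, against 10.85, 10.52 and 10.26 in control, 3.69-fold higher (limma adjusted p = 0.00119). DDX24, an RNA helicase, was higher by 0.81, and DDX10, another, and SDAD1 were lower by -1.16 and -0.86 (limma adjusted p = 0.036, 0.00672 and 0.0262). Among 22 rRNA processing nucleases the exosome subunits EXOSC2 and EXOSC8 were lower, by -1.57 and -1.19 (limma adjusted p = 0.00319 and 0.0126). They are 9.09% of that list, against 12.8% of all genes, and 0 were higher by limma, with 1 at an unadjusted p under 0.05. Of 10 snoRNP assembly genes only NOPCHAP1 was higher, by 1.39 (limma adjusted p = 0.0195), 10% against 12.2% of all genes. By limma 0 were lower, with 2 at an unadjusted p under 0.05.

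In the MYC network list 4 of 14 tested genes were higher and 2 lower, 42.9% against 24.9% of all genes. MXD1, which competes with MYC for MAX, had 10.02, 10.57 and 10.69 with DAMTC, against 8.40, 6.93 and 7.32 in control. Every DAMTC array was above every control array, and MXD1 was 7.35-fold higher, by 2.88 ± 0.40 (limma adjusted p = 0.0015). FBXW7, a ubiquitin ligase adaptor that marks MYC protein for degradation, had 10.89, 10.72 and 10.84 with DAMTC, against 9.54, 8.96 and 9.06 in control, and was 3.1-fold higher (limma adjusted p = 0.00245). MXI1, a relative of MXD1, and ZBTB17, a MYC partner at repressed genes, were higher by 1.48 and 1.34 (limma adjusted p = 0.0224 and 0.0087). MGA, a MAX partner, and TRRAP, a MYC cofactor, both chosen after their values were seen, were lower by -1.20 and -0.87 (limma adjusted p = 0.0356 and 0.0259). MAX itself differed by 0.63 and did not pass (limma adjusted p = 0.104). The list was chosen with earlier results of these data known, and its protein activities were not measured. Without any 1 of the DAMTC arrays 0 genes of the MYC network were lower. Over all 10779 genes 808, 830 and 799 were lower without DAMTC replicates 1, 2 and 3, against 1378 in the main fit. Without control replicate 1 the counts were 6 higher and 1 lower for the Pol III list, 5 and 6 for the SSU processome list and 6 and 3 for the large subunit list. The calls over all genes also rose in that fit, from 1311 higher and 1378 lower to 1722 and 1999. Of the genes named by rule from these lists, DDX24, EXOSC8, MXI1, NOL6, NOPCHAP1, POLR3G, POLR3K, SDAD1 and UTP25 lost their call in 2 to 10 of the 17 or 18 alternatives.

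**Figure D5:**
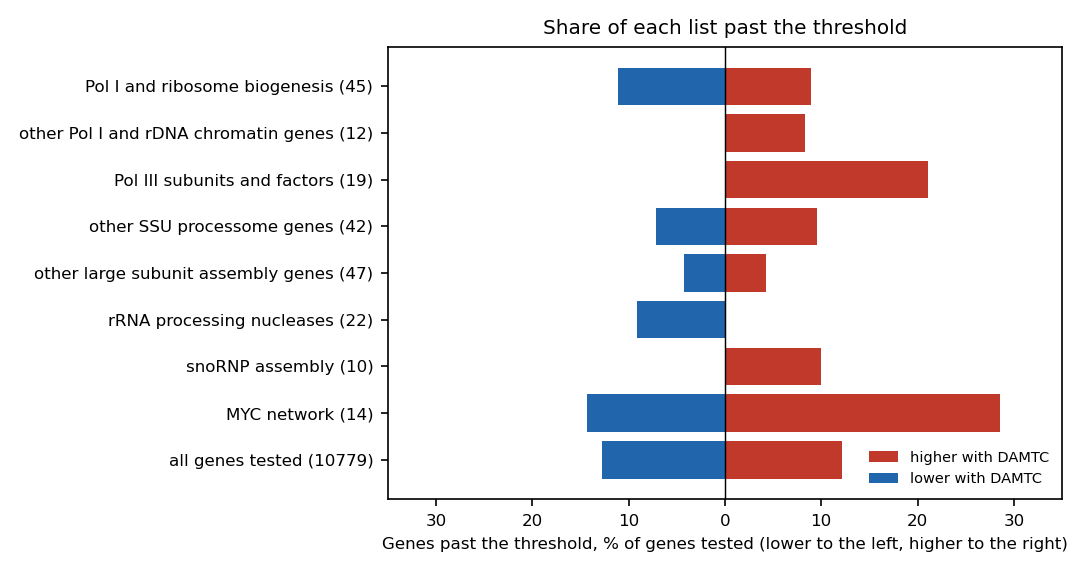
Share of tested genes past the threshold (x axis, %), lower with DAMTC to the left of 0 and higher with DAMTC to the right, for the 45 members, for 7 further lists (numbers tested in brackets) and for all genes tested. The members reach 11.1% and 8.89%, against 12.8% and 12.2% of all genes.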

How the data were processed

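RNA of A549 cells was measured on 6 Illumina bead arrays, 3 DAMTC and 3 control, grouped by sample title. Per the file headers, the deposited table holds linear bead intensities, averaged over the beads of a probe, with a detection p-value deposited beside it; bead numbers and bead standard errors are further deposited columns. BeadStudio is named by the submitters' processing notes; no version was found in what was used here. The deposited series matrix intensities were straight lines of the same bead values (largest residual 0.0107), with medians of 8.99, 8.70 and 9.17 for DAMTC and 10.9, 9.34 and 8.59 for control replicates 1 to 3; scale, centring and direction are thus known.

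Intensities deposited by the authors were background-corrected here (nec, offset 16, limma 3.58.1, R 4.3.3), quantile normalized and log2 transformed. Of 48803 probes, 27578 had 1 symbol, 13 had several and 21212 were not named. Probes detected at p under 0.05 on 3 or more arrays were kept, with the brightest probe per gene, and 7886 genes were too dim. lmFit and eBayes were fitted over all 10779 genes, and further probes in a fit of 13762 probes; the steps were tested on simulated data. The number of arrays limits the precision. A bound compares the bright group's mean with the dim group's, each dim array entering at its lowest detected signal or the probe's value, whichever is larger. Values were given on each array for members past the threshold and for MYC, UBTF, RRN3, FBL, NCL and NPM1 in any case (POLR1A was also in this rule but had no kept probe), with up to 4 genes of each further list; per-array values of other members whose groups separated, or that turned on control replicate 1, were added after their values were seen. Members and lists were chosen with earlier results of these data known. Motifs and promoter windows were chosen after the data were seen, and a longer ETS motif and 1 other motif were counted first and are not shown. Same-numbered replicates correlated at -0.452, -0.458 and -0.178 in their deviations from the group means, so same-numbered arrays did not deviate together. Whether they shared a culture or batch was not tested.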

Additional observations from a re-analysis of the deposited data

How the results depend on the processing

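Against 4 members higher and 5 lower, median scaling gave 1 and 9. With no normalization there were 0 and 9 (limma, 3 higher at an unadjusted p under 0.05). The deposited series matrix values gave 1 and 7, and array weights 10 and 11. The replicate block gave 0 and 2 (limma, 6 higher unadjusted), though same-numbered arrays did not deviate together. A threshold of 0.01 likewise gave 0 and 2 (limma, 7 higher unadjusted). The calls over all 10779 genes also moved, from 1311 higher and 1378 lower. They were 898 and 2144 with median scaling, 864 and 2088 with no normalization, and 1015 and 1799 with the series matrix values. With array weights they were 2219 and 2645, and at 0.01 they were 672 and 607. For the series matrix fit, deposited values under 16 were first set to 16, which is above the median of every array. Detection on all 6 arrays gave 4 and 3, against 1062 and 1052 of 8873 genes. Leaving out 1 array at a time used the filter and probes taken from all 6 arrays (chosen after seeing the data). It gave 0 to 9 members higher and 2 to 7 lower, against 788 to 1722 and 799 to 1999 over all genes. The count was 0 higher without DAMTC replicate 2 or 3 (limma, 5 and 4 unadjusted), and 9 without control replicate 1. Without DAMTC replicates 1, 2 and 3 the lower count was 2 each. The replicate block lowered the calls over all genes to 764 and 824. The members' median ran from -0.18 to 0.12, so its sign is not stable. RRS1 (-2.35 to -1.67; limma adjusted p = 2.98e-05 to 0.0191) and TAF1B (-1.71 to -1.13; 0.00115 to 0.0339) passed in all 18 alternatives, and none of the 9 called members changed sign. Of the 36 others, 12 passed in at least 1 alternative, all 12 with array weights and 7 without control replicate 1. In the further lists BRF2, GTF3C5, POLR2H, RIOK2, RIOK3, ZNF622, DDX10, EXOSC2, MXD1, FBXW7 and ZBTB17 passed in all 18 (tried after seeing the data). Dim probes such as those of POLR1B, PPAN, PES1 and UBTF lie near background, where differences are compressed.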
